A study of Mus musculus with 2 samples.

Results

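The cells described here are the neutrophils that were recovered when EGFP-positive, tdTomato-negative cells were sorted from 2 kinds of mouse breast tumour. A barcode was taken as a neutrophil when S100a8 and S100a9 together made up at least 2% of its unique molecular identifiers (UMIs, each standing for 1 captured RNA molecule). It also had to hold at most 2 UMIs of C1qa, C1qb and C1qc, at most 5 of Krt8 and Krt18, and at most 1 of Cd3d and Cd3e. The rule found 151 of the 2727 barcodes that had at least 500 UMIs and at most 10% mitochondrial UMIs, out of 3070 deposited. The PyMT library held 119 neutrophils among 592 kept barcodes (20.1%, 16.9 to 23.6) and the Met-1 library 32 among 2135 (1.499%, 1.03 to 2.11). These shares follow from the rule and from the sort, and are given as a description.

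RNA of single cells was counted on the 10x Genomics platform in 1 library of a PyMT breast tumour and 1 library of a Met-1 tumour grown from transplanted cells. Both came from C57BL/6 inAd-Chaser-mTmG mice, which carry Adiponectin-rtTA, TRE-Cre and the Rosa26 mT/mG reporter. In these mice the Adiponectin promoter and doxycycline together switch adipocytes from tdTomato to EGFP, a mark that their descendants keep. The study asked whether adipocytes dedifferentiate as breast tumours grow, and sorted the marked cells from the tumour's fibroblast preparation. For the PyMT tumours the reporter mice were crossed to PyMT mice. For the transplant, the sample label names the Met-1 mouse mammary tumour line and the series text names EO771, and the sample label is followed here. The number of animals, the doxycycline schedule and the ages are not given in the sources used here. Each group is 1 library, so no statistical test was possible and no difference has a replicate check. Every interval is a 95% interval of counting error alone, which leaves out variation among animals and tumours.

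Neutrophils are short-lived phagocytes that leave the bone marrow as mature, non-dividing cells packed with granules. Granule proteins are made in order during maturation: primary granule enzymes such as Mpo and Elane first, then specific granule proteins such as Camp and Ngp, then gelatinase granule proteins such as Mmp9. S100a8 and S100a9 form calprotectin, an abundant protein complex of their cytosol. In tissues and tumours, activated neutrophils make chemokines and cytokines such as Cxcl2, Ccl3 and Il1b. They draw their energy mostly from glycolysis.

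The 2 genes that define the class lie together on chromosome 3. Their promoters are shown because every cell described here was chosen by these transcripts. C/EBP proteins, the transcription factors of the granulocyte lineage, bind sequences like TTGCNNAA, and Cebpb RNA stood at 10110.2 CPM in PyMT and 9733 CPM in Met-1 neutrophils (CPM, counts per 1000000 UMIs summed over the neutrophils of a library). The 250 bases before each start site are from RefSeq on build GRCm38.p6, 5′ to 3′ on the gene's strand, at chr3:90668821-90669070 on the plus strand for S100a8 and chr3:90695722-90695971 on the minus strand for S100a9. Capitals mark matches to TTGCNNAA on either strand.
S100a8: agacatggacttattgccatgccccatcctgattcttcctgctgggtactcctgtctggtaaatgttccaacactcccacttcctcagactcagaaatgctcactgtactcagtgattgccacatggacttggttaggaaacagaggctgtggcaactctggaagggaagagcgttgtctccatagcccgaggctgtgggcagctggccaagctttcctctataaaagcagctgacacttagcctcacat
S100a9: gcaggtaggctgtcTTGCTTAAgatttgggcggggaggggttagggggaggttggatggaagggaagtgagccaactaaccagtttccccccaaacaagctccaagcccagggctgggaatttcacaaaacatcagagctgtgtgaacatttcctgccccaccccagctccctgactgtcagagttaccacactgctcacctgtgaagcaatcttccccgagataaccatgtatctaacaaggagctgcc
The S100a9 window held 1 match, 236 bases before the start, and the S100a8 window 0. The motif occurred in 9.57% of the 32841 mouse promoters of that length, and a match is a description of letters, not a site.

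The defining neutrophil markers were present in both libraries. Hdc, which makes histamine, was at 2311 CPM (2116 to 2520) in PyMT neutrophils and 2407 CPM (2087 to 2761) in Met-1 neutrophils. The resistin-like protein Retnlg was at 5080 and 5465 CPM, and the chemokine receptor Cxcr2 at 628 and 889 CPM, in the same order. The G-CSF receptor Csf3r was at 893 CPM (773 to 1026) in PyMT and 1719 CPM (1451 to 2023) in Met-1. With each cell thinned to 500 UMIs, Hdc would be seen in 64.9% of PyMT and 70.6% of Met-1 neutrophils, against 0.437% and 0.0836% of the lymphocytes of the same libraries (barcodes with at least 3 UMIs of Cd3d, Cd3e and Cd79a and at most 2 of C1q). Without thinning, 109 of 119 PyMT and 31 of 32 Met-1 neutrophils had an Hdc UMI.

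Markers of other cell types were scarce, in part by the rule itself, which limits C1q, Krt8, Krt18, Cd3d and Cd3e. The 5 macrophage markers outside the rule gave 153 UMIs in PyMT and 72 in Met-1 neutrophils (687 and 854 CPM), most of them Apoe at 642 and 830 CPM. The 6 monocyte markers summed to 175 CPM in PyMT and 130 CPM in Met-1, and the defining monocyte receptor Ccr2 was at 0 in both. Eosinophil markers gave 85.3 and 35.6 CPM, all of it Siglecf, with 5 of the 6 genes at 0 in both libraries. Mast cell and basophil markers summed to 2 UMIs in PyMT and 0 in Met-1, and dendritic markers to 1 and 4. Fibroblast markers summed to 6 and 16 UMIs, the 6 T and NK cell markers outside the rule to 3 and 6, the 4 luminal markers outside it to 55 and 11, mural and endothelial markers to 12 and 5, erythroid and platelet markers to 3 and 0, and adipocyte markers to 8 and 3. The genes that the rule limits gave 40 UMIs in PyMT and 11 in Met-1 for C1q, 13 and 1 for Krt8 and Krt18, and 3 and 2 for Cd3d and Cd3e. B cell markers gave 2 UMIs in PyMT and 44 in Met-1, of which 40 sat in 1 Met-1 neutrophil. Scrublet marked 0 of 592 PyMT barcodes, 20 of 2135 Met-1 barcodes and 0 of the 151 neutrophils as doublets. The neutrophil with 40 B cell marker UMIs was thus not marked either.

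Neutrophils were shallow cells. They had a median of 1690 UMIs and 697 genes in PyMT, and 2711.5 UMIs and 1021 genes in Met-1. The C1q macrophages of the same libraries, used below as the comparison class (at least 10 C1q UMIs, 196 PyMT and 825 Met-1 cells), had medians of 7758 and 7885 UMIs. Summed over cells, 222844 UMIs stood behind the PyMT neutrophils and 84351 behind the Met-1 neutrophils. Fewer cells of a state and less RNA per cell cannot be told apart in these sums.

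All 151 neutrophils carried EGFP RNA, except 1 PyMT cell without a UMI. The sort chose EGFP-positive cells, so the EGFP values are a description. Descent of these neutrophils from adipocytes was not tested. EGFP was at 9608 CPM in PyMT and 13373 CPM in Met-1 neutrophils, against 2653 and 4036 CPM in macrophages and 1146 and 2626 CPM in lymphocytes. Per cell, the mean was 18.0 UMIs in PyMT and 35.2 in Met-1 neutrophils, against 24.8 and 37.0 in macrophages and 4.98 and 17.6 in lymphocytes. Neutrophils were the shallower cells, and the part of depth in the CPM order was not tested. EGFP was found in 88.3% and 98.2% of macrophages and in 33.3% and 96.1% of lymphocytes, in PyMT and Met-1. With each cell thinned to 500 UMIs, the shares came to 95.7% and 99.3% for neutrophils, 64.1% and 75.4% for macrophages and 19.4% and 68.3% for lymphocytes. Per neutrophil, the 10th percentile, median and 90th percentile were 3715, 9044 and 17256 CPM in PyMT, and 8778, 13535 and 19047 CPM in Met-1. The distributions overlapped. Adipocyte marker RNA in the same cells was 35.9 and 35.6 CPM, with 4 and 5 of the 6 genes at 0.

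The S100 share ranged widely inside the class. It ran from 2.03% through a median of 5.99% to 38.6% in PyMT neutrophils, and from 2.85% through 10.6% to 33.6% in Met-1 neutrophils. The PyMT cells reached the 2% limit without a gap: 11 cells lay between 2 and 2.5% and 19 barcodes between 1.5 and 2%, while Met-1 had 0 and 2. Of the 33 PyMT barcodes between 1 and 2%, 69.7% had at least 2 UMIs of Csf3r, Hdc and Cxcr2, as did 78.6% of the 14 between 0.5 and 1% and 97.2% of the 36 at 10% or more. In PyMT, the limit therefore ran through a continuous range of cells with neutrophil marker RNA.

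**Figure D1:**
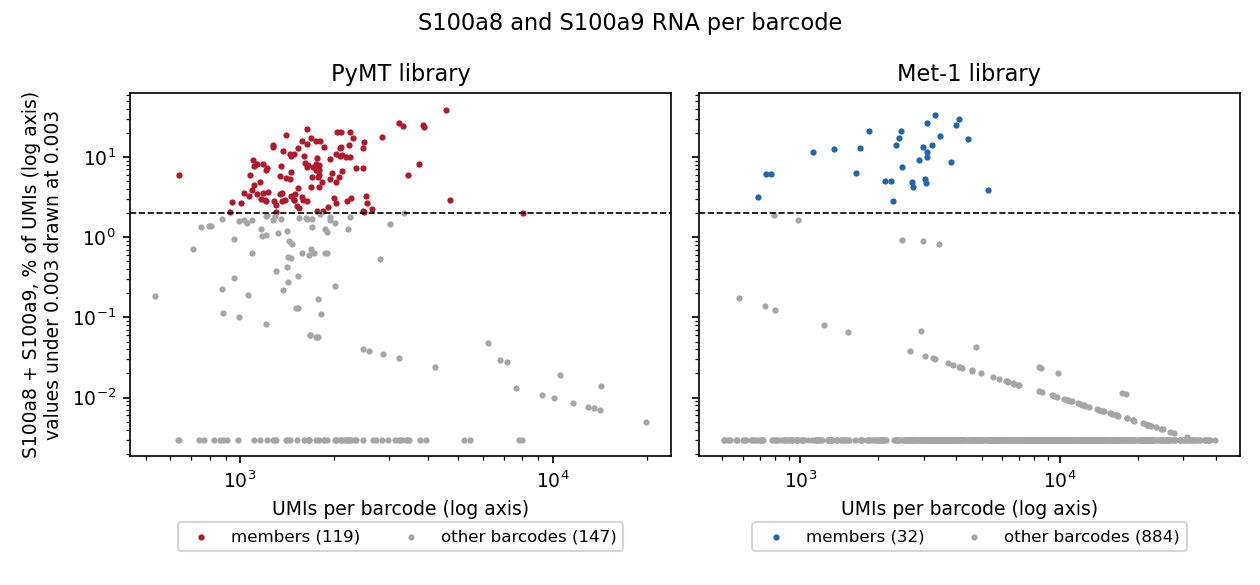
Share of UMIs from S100a8 and S100a9 (log axis) against UMIs per barcode (log axis) in the PyMT library (left) and the Met-1 library (right), for barcodes within the C1q, keratin and CD3 limits. Coloured points are the 119 and 32 neutrophils, grey points other barcodes, and the dashed line is the 2% limit. PyMT points run across the line, and few Met-1 points lie near it.

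The balance of the calprotectin genes differed between the libraries. S100a8 gave 12113 UMIs and S100a9 8397 in PyMT neutrophils, a ratio of 1.44, against 5170 and 6075 in Met-1 neutrophils, a ratio of 0.851. S100a8 exceeded S100a9 in 77 of 119 PyMT cells and in 8 of 32 Met-1 cells. The share of S100a8 in the pair had a median of 56.7% in PyMT and 45.5% in Met-1, with a range of 11.1 to 91.4% and 23.1 to 68.1%. The rule used the sum of the pair, not its balance, but both genes entered the rule and these values are a description.

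Maturation was described first by the granule genes. The primary granule enzymes Mpo, Elane and Ctsg and the specific granule peptide Camp had 0 UMIs in both libraries, which allows up to 13.5 CPM in PyMT and 35.6 CPM in Met-1 neutrophils. The proliferation marker Mki67 was also at 0, as were 10 of 18 proliferation genes in PyMT and 12 in Met-1. Late granule RNA was present: the gelatinase Mmp9 was at 386 CPM in PyMT and 415 CPM in Met-1. The protease inhibitor Slpi was at 2275 and 3165 CPM, and the peptidoglycan recognition protein Pglyrp1 at 956 and 877 CPM, in the same order. The granule proteoglycan core Srgn, which is listed here with the early granule genes, was at 6184 and 9449 CPM. The specific granule gene Ngp had 57 UMIs in 8 PyMT cells and 0 in Met-1, and 28 of the 57 lay in 1 cell. Of these 8 cells, 7 also held the collagenase Mmp8.

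Within PyMT neutrophils, granule RNA was higher at a higher S100 share. That share chose the members, so the values by S100 share are a description only. Retnlg stood at 15334 CPM of the UMIs other than S100a8 and S100a9 in the 36 cells with an S100 share of 10% or more, and at 559 CPM in the 28 cells with 2 to 3%. Mmp8 was at 1071 and 93.1 CPM, Lcn2, which binds bacterial siderophores, at 4518 and 596 CPM, and the lysozyme Lyz2 at 1039 and 74.5 CPM in the same cells. The chemokines Ccl3 and Ccl4 ran the other way. Ccl3 was at 94.5 CPM in the cells with the highest S100 share and at 2476 CPM in those at 2 to 3%, and Ccl4 at 142 and 2011 CPM. The lectin Siglecf, known from neutrophils of mouse lung tumours, was at 15.7 and 205 CPM. In the barcodes just outside the limit, at 1 to 2%, Ccl3 was at 5720 CPM and Retnlg at 140 CPM, and these lay at the Ccl3 end of the range.

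**Figure D2:**
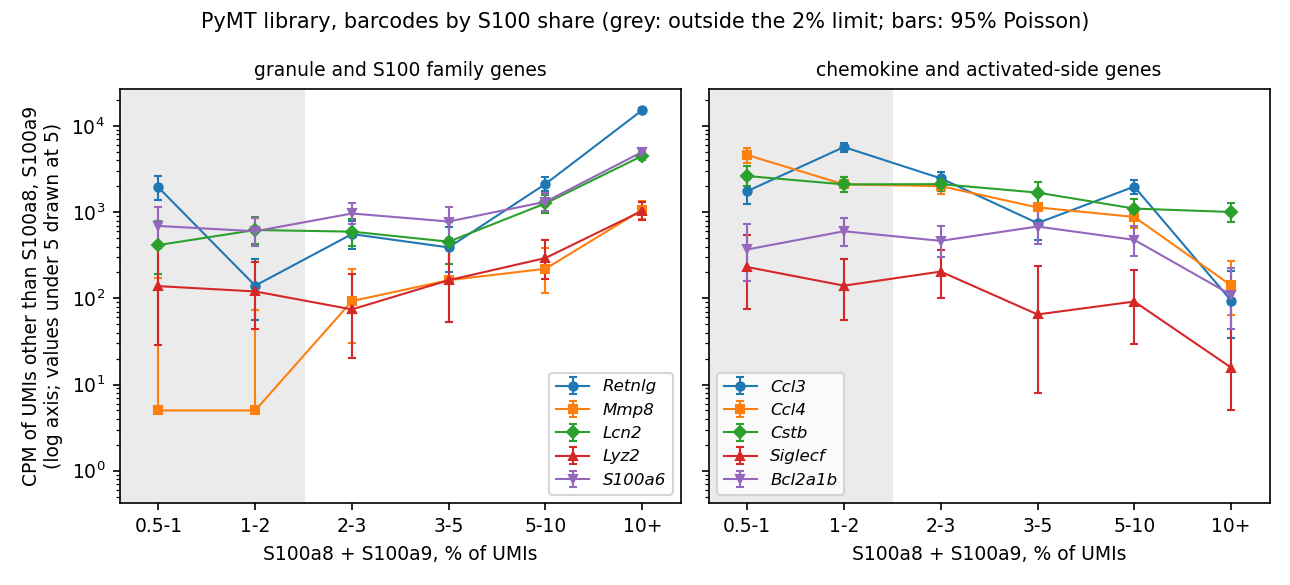
CPM of UMIs other than S100a8 and S100a9 (log axis, values under 5 drawn at 5) in PyMT barcodes grouped by S100 share, for granule and S100 family genes (left) and for chemokine and activated-side genes (right). Bars are 95% Poisson intervals and grey marks bins outside the 2% limit. Retnlg is highest in the top bin, at 15334 CPM, where Ccl3 is at 94.5 CPM.

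To describe this range without the S100 genes, 15 mature-side genes (such as Retnlg, Cxcr2, Mmp8, Lcn2 and Padi4) were set against 15 activated-side genes (such as Ccl3, Ccl4, Cxcl2, Tnf, Cd274, Icam1 and Ptgs2). The mature-side list took 0.567% of the UMIs of the median PyMT neutrophil and 0.827% in Met-1, and the activated-side list 2.03% and 1.80%. Mature-side RNA made up a median of 18.4% of both lists together in PyMT, with a 10th to 90th percentile of 2.93 to 68.8%, and 25.7% in Met-1, with 5.07 to 77.3%. Each library was divided at its own median into a mature-side and an activated-side group, of 59 and 60 PyMT cells and of 16 and 16 Met-1 cells. The groups carry the names of the lists. Mmp8 and Lcn2 of the mature-side list are also specific granule genes, and an order of maturation between the groups was not tested. As many as 37 PyMT and 7 Met-1 cells lay within 10 percentage points of the dividing value, so the groups are ranges and not types. Not every listed gene followed the division. Cd14, also in the lists, had a ratio of mature-side over activated-side cells of 0.951 (0.811 to 1.11) in PyMT. In Met-1 the Cd14 ratio was 1.74 (1.34 to 2.28). Cxcr2 was at 752 CPM in mature-side and 1047 CPM in activated-side cells of Met-1, and the Met-1 ratios of Ccl4 (0.935) and Cd274 (0.866) were near 1. The mature-side group had a median S100 share of 10.1% in PyMT, against 3.80% in the activated-side group, and in Met-1 these shares were 15.5% and 6.16%. These shares too are a description, since the S100 share chose the members. In Met-1 the mature-side list did not rise steadily with the S100 share. It was at 4968, 6417, 1989 and 21025 CPM of other UMIs at 2 to 3, 3 to 5, 5 to 10 and 10% or more, on 1, 5, 10 and 16 cells.

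**Figure D3:**
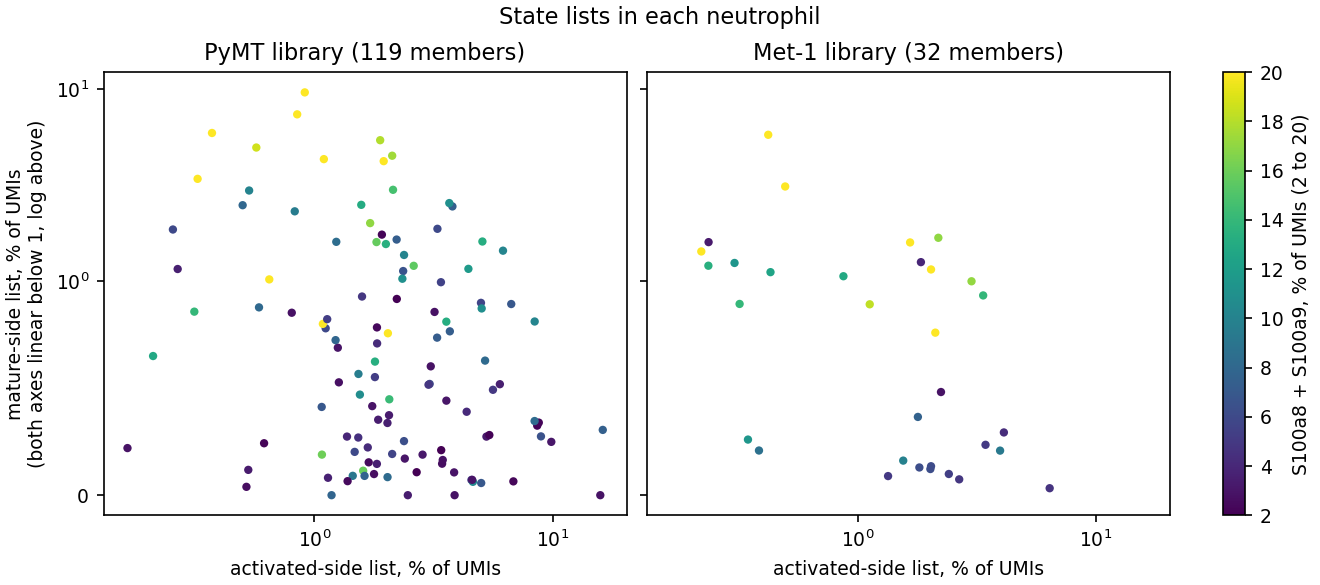
Share of UMIs from the mature-side list against the share from the activated-side list in each neutrophil of the PyMT library (left, 119 cells) and the Met-1 library (right, 32 cells), with both axes linear below 1 and log above. Colour is the S100 share. Cells with a high S100 share tend to lie towards the mature side in both libraries, with exceptions in each. The points run into each other without a gap.

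Outside the lists that made the division, 16 of the 528 genes with a mean of at least 200 CPM in both libraries were at least 2-fold higher in the mature-side group of each library (3.03%), and 14 were at least 2-fold lower (2.65%). In PyMT alone 25 were higher (4.73%) and 32 lower (6.06%), and in Met-1 alone 44 were higher (8.33%) and 76 lower (14.4%). Since the division and these genes come from the same cells, the values are a description. The median gene stood at -0.15 on the log2 scale in PyMT and -0.20 in Met-1. With ratios centred on it, 26 genes were higher and 8 lower. Without the cell that held most UMIs of each gene, 15 were higher and 6 lower.

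Named first are the genes with the highest ratios on the mature side in both libraries. The annexin Anxa1, which restrains neutrophil entry into tissue, was at 524 CPM in mature-side and 109 CPM in activated-side cells of PyMT, a ratio of 4.81 (2.56 to 9.83). In Met-1 it was at 951 and 204 CPM, a ratio of 4.65 (2.16 to 11.5). The calcium-binding S100a6 was 3.101-fold (2.501 to 3.87) higher in PyMT and 2.67-fold (2.04 to 3.53) in Met-1. The retroviral-like protease gene Asprv1 was 2.21-fold (1.63 to 3.04) and 8.16-fold (3.75 to 21.1) higher in PyMT and Met-1, and Lyz2 2.32-fold and 5.51-fold. The actin-associated genes Tagln2 (3.91 and 6.35) and Zyx (2.67 and 2.73), the retinol dehydrogenase Rdh12 (3.82 and 3.12), the iron-sensing ligase subunit Fbxl5 (2.56 and 2.72), the mitochondrial ribosome gene Mrpl33 (2.34 and 2.22) and the chromatin protein Hmgb2 (2.59 and 2.16) completed the 10 with the highest ratios in both.

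The genes lower on the mature side were high in activated-side cells of both libraries. The G protein subunit Gngt2 was at 124 CPM in mature-side and 907 CPM in activated-side cells of PyMT, a ratio of 0.137 (0.0723 to 0.241). In Met-1 it was at 66.4 and 792 CPM, a ratio of 0.0838 (0.0164 to 0.269). The survival gene Bcl2a1b, one of several near-identical copies between which reads may be shared, had ratios of 0.248 in PyMT and 0.108 in Met-1. By list, 4 of 18 immediate early genes, 3 of 7 tumour neutrophil genes and 2 of 8 hypoxia and glycolysis genes were lower in both libraries, against 2.65% of all genes. The immediate early genes were Nr4a1 (0.313 and 0.289), Egr1 (0.411 and 0.0702), Dusp2 (0.411 and 0.153) and Gadd45b (0.445 and 0.143). The cytokine Mif (0.369 and 0.206), the lipid droplet gene Hilpda (0.390 and 0.377) and the cathepsin inhibitor Cstb (0.406 and 0.192) were also lower, as was Xist (0.445 and 0.433). Il1b missed the 2-fold limit in both, at 9118 CPM in mature-side and 16197 CPM in activated-side PyMT cells, and 10729 and 17907 CPM in Met-1 cells.

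EGFP did not separate the groups: it was at 9881 CPM in mature-side and 9328 CPM in activated-side cells of PyMT, and at 12764 and 14075.5 CPM in Met-1. The lineage genes Hdc and Csf3r also stayed within 2-fold between the groups in both libraries. Hdc was at 2139.6 CPM in mature-side and 2486 CPM in activated-side PyMT cells, and at 2190 and 2657 CPM in Met-1 cells.

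Between the tumours, 95 of 718 genes with a mean of at least 200 CPM were at least 2-fold higher in PyMT neutrophils (13.2%), 78 were at least 2-fold lower (10.9%) and 545 were not apart. The fold is the ratio of CPM + 10, and the median gene stood at 0.06 on the log2 scale. In the C1q macrophages, 35 of the same genes were higher (4.87%) and 37 lower (5.15%) in PyMT. Of the neutrophil genes, 47 of the 95 and 20 of the 78 were also at least 2-fold beyond the macrophage ratio, while 19 and 28 were apart in the same direction in macrophages. Leaving out each gene's UMIs in the cell that held most of them, with totals kept, gave 102 higher and 51 lower. That cell is drawn from 119 in PyMT but from 32 in Met-1. The step therefore takes a larger part from Met-1 and by itself moves ratios towards PyMT. The PyMT neutrophils were the shallower cells, with a median of 1690 UMIs against 2711.5 in Met-1, and the part of depth in these ratios was not tested.

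Glycolytic and hypoxia-regulated genes were higher in PyMT neutrophils as a group. Of the 13 genes of this list that entered, 11 were higher and 0 lower, against 13.2% and 10.9% of all genes. The median log2 ratio was 1.76 against 0.06 over all genes, while in macrophages 1 of the 13 was higher and the median was 0.31. The 22 listed genes summed to 14086 CPM in PyMT and 4778 CPM in Met-1, a ratio of 2.95 (2.66 to 3.28). In single cells the list took 0.441, 0.989 and 3.01% of UMIs at the 10th percentile, median and 90th percentile in PyMT, and 0.205, 0.389 and 0.648% in Met-1. The PyMT median lay above the Met-1 90th percentile, and the distributions overlapped at their lower ends. By S100 share, a value that chose the members and so gives a description only, the list stood at 14799 CPM of other UMIs in PyMT and 5207 CPM in Met-1 cells with 10% S100 or more, and at 17418 and 6394 CPM in cells with 5 to 10%.

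Enzymes of glycolysis made up most of these members. Tpi1, triose phosphate isomerase, was at 758 CPM (648 to 882) in PyMT and 107 CPM (48.8 to 203) in Met-1 neutrophils, a ratio of 7.11 (3.66 to 15.8). Enolase Eno1 was at 1081 and 225 CPM (4.80, 3.01 to 8.11), lactate dehydrogenase Ldha at 1629 and 403 CPM (4.04, 2.84 to 5.93), and phosphoglycerate mutase Pgam1 at 857 and 225 CPM (3.81, 2.37 to 6.46). Of these 4 genes, Eno1 alone was at least 2-fold higher in macrophages too, at 1.05 on the log2 scale. Pyruvate kinase Pkm was 3.42-fold, Gapdh 2.68-fold, the kinase Pgk1 2.46-fold, the aldolase Aldoa 2.42-fold and the glucose transporter Slc2a1 2.27-fold higher in PyMT. Gapdh, Tpi1 and several others have processed pseudogene copies in the mouse genome, and the sources used here do not say how such reads were shared out.

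Hypoxia-response genes outside glycolysis were also higher. The mitophagy receptor Bnip3 was at 494 CPM in PyMT and 83.0 CPM in Met-1 (5.95-fold, 2.79 to 15.1), and the endoplasmic oxidase Ero1l at 386 and 35.6 CPM (10.9-fold, 3.59 to 53.6, on 3 Met-1 UMIs). The oxygen-sensing hydroxylase Egln3 had 55 UMIs in 24 PyMT cells and 0 in Met-1. Its PyMT level was 6.94-fold above a Met-1 floor of 3 counts, which is a convention and not an interval limit. The mitochondrial protein Higd1a, outside the list, was 6.36-fold (2.62 to 20.1) higher. Hif1a itself had a ratio of 0.662 (0.346 to 1.31) and Vegfa of 0.804 (0.329 to 2.15), both short of the level at which genes entered. Hilpda (1.89, 1.30 to 2.84) and Slc2a3 (1.46, 0.819 to 2.78) entered and were not apart.

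The core of the hypoxia response element, ACGTG, was looked up in the promoters of the 13 genes that entered. Of the 13 genes, 11 were found in the RefSeq promoter table, and Ero1l and Slc2a3 were not. At least 1 match on either strand was found in 8 of the 11 genes and in 9 of their 18 promoters (50%), against 16.6% of all 32841 promoters. Tpi1, Eno1 and Gapdh had 0 matches. The genes were picked as hypoxia and glycolysis genes, and they include Hilpda, which was not apart. The promoters they are set against were not matched for base composition. The shares are therefore a description of letters, not of sites, and a part of hypoxia was not tested. Ldha and Bnip3 are shown because they were among the genes with most matches, 250 bases before the start on build GRCm38.p6, at chr7:46845554-46845803 on the plus strand and chr7:138909507-138909756 on the minus strand. Capitals mark ACGTG or its reverse complement CACGT, which overlap in CACGTG and then count as 2 matches.
Ldha: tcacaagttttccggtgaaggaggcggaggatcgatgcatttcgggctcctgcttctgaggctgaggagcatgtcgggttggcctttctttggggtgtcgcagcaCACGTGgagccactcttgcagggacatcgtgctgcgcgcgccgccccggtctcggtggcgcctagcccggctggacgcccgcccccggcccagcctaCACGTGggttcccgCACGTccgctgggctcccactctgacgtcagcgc
Bnip3: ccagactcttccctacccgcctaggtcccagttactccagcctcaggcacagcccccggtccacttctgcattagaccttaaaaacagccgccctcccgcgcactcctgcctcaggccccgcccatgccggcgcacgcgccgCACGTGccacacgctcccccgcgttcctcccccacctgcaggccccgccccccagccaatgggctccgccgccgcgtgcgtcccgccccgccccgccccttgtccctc
Ldha had 5 matches between 145 and 34 bases before the start, and Bnip3 had 2 in a single CACGTG.

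**Figure D4:**
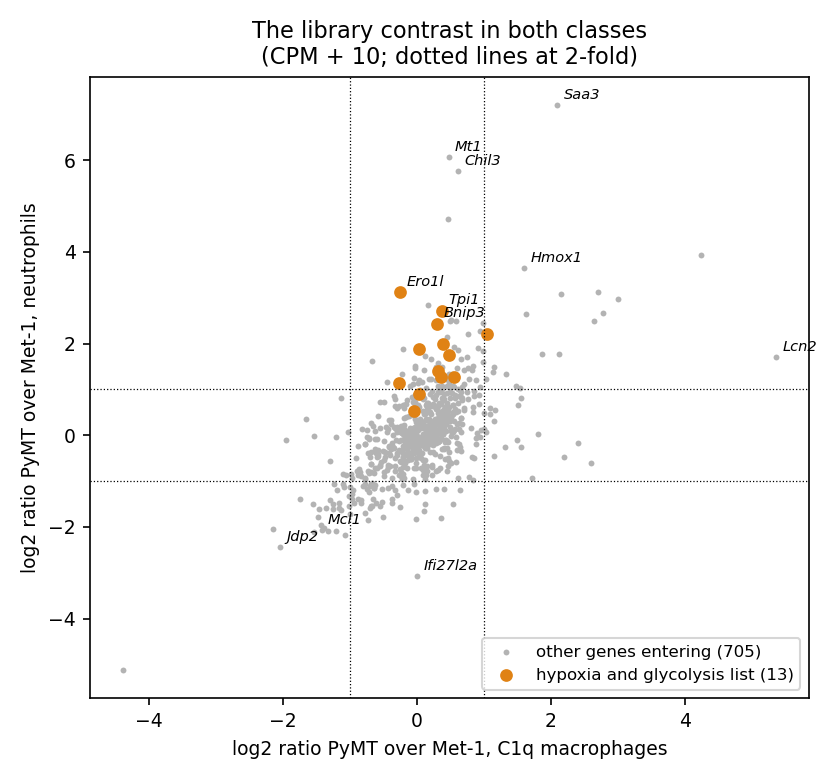
Log2 ratio of PyMT over Met-1 (CPM + 10) in neutrophils against the same ratio in C1q macrophages for the 718 genes that entered, with dotted lines at 2-fold. Orange points are the 13 hypoxia and glycolysis genes that entered, of which 11 lie above the upper line and 1 of 13 lies right of the right-hand line. Ifi27l2a lies far below the lower line at a macrophage ratio near 0.

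A list of genes known from tumour-infiltrating mouse neutrophils was mostly higher in PyMT as well. Of the 8 that entered, 5 were higher and 0 lower, against 13.2% and 10.9% of all genes. The median log2 ratio was 1.30. Haem oxygenase Hmox1 was at 561 CPM in PyMT and 35.6 CPM in Met-1 (15.8-fold, 5.27 to 77.5, on 3 Met-1 UMIs). Mif was at 1804 and 308 CPM (5.85-fold, 3.94 to 9.07), and Cstb at 1301 and 261 CPM (4.99-fold, 3.23 to 8.09). Ninj1, which ruptures the membrane of dying cells, was 3.04-fold (2.003 to 4.82) and the tetraspanin Cd63 2.07-fold (1.33 to 3.34) higher. Hmox1 was also higher in PyMT macrophages, at 1.59 on the log2 scale, and the other 4 were not apart there. Mif and Cstb were also among the genes lower on the mature side, and the part of cell state in their ratios was not tested.

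Of the cytokine and chemokine genes, 3 of the 7 that entered were higher, against 13.2% of all genes, and 1 was lower, with a median log2 ratio of 0.53 against 0.06. The list summed to 32170.5 CPM in PyMT and 24386 CPM in Met-1, a ratio of 1.32 (1.26 to 1.39). Cxcl2, which attracts further neutrophils, was at 14840.0 CPM in PyMT and 7089 CPM in Met-1 (2.09-fold, 1.92 to 2.29), and was 1.48 higher on the log2 scale in macrophages too. Ccl3 was 2.09-fold (1.53 to 2.89) and the interleukin 1 antagonist Il1rn 2.16-fold (1.35 to 3.62) higher, while the cytokine Osm was 2.30-fold (1.32 to 3.98) lower. Il1b was at 12619 CPM in PyMT and 14060.3 CPM in Met-1, within 2-fold. Tnf had 46 UMIs in 25 PyMT cells and 1 in Met-1, a ratio of 17.4 (2.97 to 702.5). Ccl3 and Ccl4 were held by few cells: 30 and 31 of 119 PyMT neutrophils, 15 of them with both, and 7 and 8 of 32 Met-1 neutrophils, 3 with both.

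Over all genes, 13.2% were higher and 10.9% lower in PyMT, and the counts in this paragraph are a description beside those shares. NF-kB genes gave 2 higher and 1 lower of 8. Icam1, an adhesion molecule, was 3.89-fold (1.80 to 10.0) higher in PyMT and Tnfaip2 3.05-fold (2.30 to 4.05) lower. Immediate early genes gave 2 higher and 3 lower of 18. The stress-response gene Ier3 was 3.05-fold (2.34 to 4.04) higher in PyMT, and Jund 3.93-fold (3.14 to 4.94) lower. Among transcription factors 2 of 10 were higher and 1 lower, with Bhlhe40 2.94-fold (1.47 to 6.70) higher and Cebpb within 2-fold.

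Interferon-stimulated genes gave 2 higher and 1 lower of 11, against 13.2% and 10.9% of all genes, with a median log2 ratio of -0.02. Ifit1 and Rsad2 were higher in PyMT (2.41 and 2.30), and these transcripts lay together in a minority of cells: 17 and 21 of 119 PyMT neutrophils, 13 of them with both. In Met-1, 6 and 5 of 32 neutrophils held them, 3 with both. Outside the list, Ifi27l2a, an interferon-induced gene, was the gene furthest lower in PyMT under the naming rule. It was at 247 CPM (186 to 321) in PyMT and 2146 CPM (1845 to 2482) in Met-1, 8.69-fold lower (6.397 to 11.98), and its macrophage ratio was 0.00 on the log2 scale.

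Specific granule genes were split, with 3 of 5 higher and 1 lower, against 13.2% and 10.9% of all genes. The 3 of 5 that were higher were Chil3, a chitinase-like protein with 118 UMIs in 31 PyMT cells and 0 in Met-1, Mmp8 at 404 and 47.4 CPM (8.52-fold, 3.21 to 31.9), and Lcn2 at 1804 and 545 CPM (3.31-fold, 2.43 to 4.59). Lyz2 was the 1 lower, at 408 and 960 CPM (2.35-fold, 1.72 to 3.21). Chil3 in PyMT was 14.9-fold above the Met-1 floor. Lcn2 was further apart in macrophages, at 5.35 on the log2 scale, whereas Mmp8 stood at 0.16 and Chil3 at 0.61 there. Mmp8 and Lcn2 belong to the mature-side list, which as a whole gave 3 higher and 0 lower of 10, with a summed ratio of 1.22 (1.13 to 1.32). The activated-side list gave 3 higher and 0 lower of 9, with a summed ratio of 1.56 (1.48 to 1.65).

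The genes furthest higher in PyMT included some that rested on single cells. The acute-phase protein Saa3 had 326 UMIs in 24 PyMT cells and 0 in Met-1, but 135 of the UMIs lay in 1 cell. The stefin family member BC100530 had 126 UMIs, 67 of them in 1 cell, and 1 in Met-1. The metallothionein Mt1 was spread more evenly, with 147 UMIs over 35 PyMT cells, at most 15 in 1 cell, and 0 in Met-1. Its PyMT level was 18.5-fold above the Met-1 floor.

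Several of the genes furthest lower in PyMT neutrophils were lower in PyMT macrophages too. Mcl1, on which neutrophil survival depends, was at 933 CPM in PyMT and 3948 CPM in Met-1 (4.23-fold lower, 3.55 to 5.05), and stood at -1.42 on the log2 scale in macrophages. The leukocyte phosphatase Ptprc was 4.14-fold lower (3.25 to 5.30), with -1.39 in macrophages, and the AP-1 repressor Jdp2 5.79-fold lower (3.58 to 9.60), with -2.05. Neurl3, Kpna4, Myh9 and Akap13 had log2 ratios of -2.04, -2.09, -2.10 and -2.17 in neutrophils and -2.15, -1.20, -1.53 and -1.08 in macrophages. Whether a difference between the libraries as a whole has a part in these ratios was not tested. By contrast, the receptor Trem1, an amplifier of neutrophil activation, was 2.11-fold lower (1.63 to 2.71) with a macrophage log2 ratio of -0.04, and Mrgpra2b, a G protein-coupled receptor, 3.80-fold lower (2.22 to 6.61) with -0.02. Csf3r was 1.92-fold lower (1.54 to 2.40), just inside the limit.

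**Figure D5:**
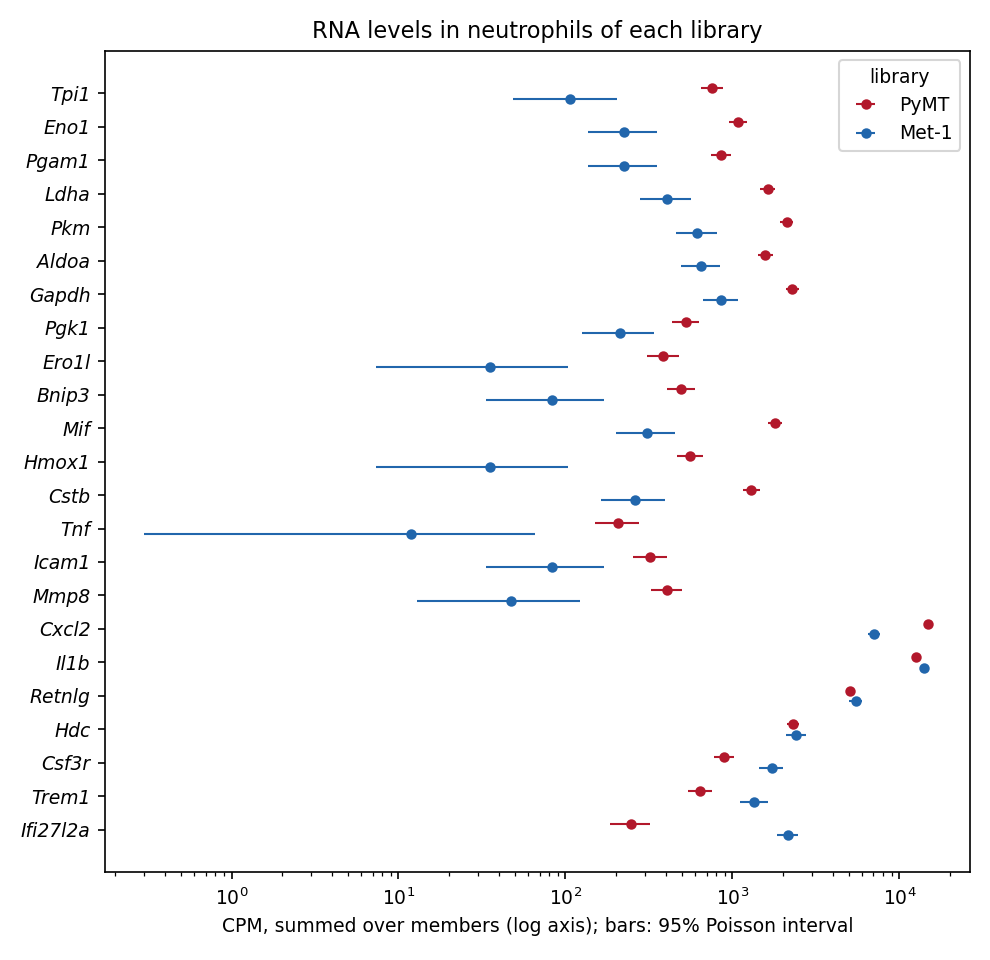
CPM (log axis) of 23 genes summed over the neutrophils of the PyMT library (red) and the Met-1 library (blue), with 95% Poisson intervals. The glycolytic genes, Ero1l, Bnip3, Mif, Hmox1 and Cstb lie higher in PyMT, Il1b, Retnlg and Hdc lie close together, and Csf3r, Trem1 and Ifi27l2a lie lower in PyMT.

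Class II antigen presentation genes passed the 2-fold limit through 1 cell. H2-Aa, H2-Eb1 and Cd74 were the 3 lower of 8 in their list, against 10.9% of all genes, at log2 ratios of -1.80, -1.64 and -1.50. The Met-1 neutrophil with 40 B cell marker UMIs, a barcode of 5317 UMIs and a 3.91% S100 share, held 25 of 39 H2-Aa, 15 of 29 H2-Eb1 and 42 of 86 Cd74 UMIs in Met-1. Without it the log2 ratios were -0.46, -0.73 and -0.64, and none of the 3 was apart, although all stayed below 0 and the Cd74 ratio was 0.637 (0.435 to 0.943). The cell also held all 27 Igkc UMIs of Met-1 neutrophils.

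The remaining lists had at most 1 gene apart in each direction, where 13.2% of all genes were higher and 10.9% lower. Of the receptor and trafficking genes 0 of 14 were higher and 1 lower, Trem1, with a median log2 ratio of -0.13. The NADPH oxidase and leukotriene list had 0 of 7 apart, with the oxidase subunit Cyba at 1279 CPM in PyMT and 1316 CPM in Met-1. Extracellular trap and chromatin genes had 0 of 4 apart, pattern recognition 0 of 5, gelatinase granule genes 0 of 4, other S100 genes 0 of 2, proliferation genes 0 of 2 and early granule genes 0 of 1. Suppressor-associated genes had 0 of 7 higher and 1 lower, again Trem1. Arg1 was at 0 in both libraries. Of Fc receptor genes, 1 of 2 was higher: Fcgr3, 2.19-fold (1.51 to 3.27). Of survival and apoptosis genes 1 of 5 was higher, Cdkn1a at 2.70-fold (1.90 to 3.94), and 1 lower, Mcl1.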

How the data were processed

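Cells sorted as EGFP-positive and tdTomato-negative from 1 PyMT tumour library and 1 Met-1 transplant library were counted with Cell Ranger 3.1.0 on build mm10, per the submitters' processing notes. The deposited values are whole-number UMI counts per gene and barcode over 31054 rows, per the file headers. The annotation, the kit, the barcode filter and the pooling of animals are not given in the sources used here. The libraries shared 0 barcodes, and 29.4% of PyMT and 10.4% of Met-1 barcodes had first 7 bases that occur in the other library. A different kit in each library was not tested, and kit, library and tumour cannot be told apart in any PyMT over Met-1 ratio.

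No file gave cell types, so barcodes were kept and chosen by the thresholds given above, without clustering. The members and lists were chosen with earlier results of these data known, so no list is independent evidence. UMI counts were summed over cells and scaled to CPM. Intervals at the 95% level are exact Poisson (CPM), exact conditional binomial (ratios) and Clopper-Pearson (shares), and cover counting error only. Fold limits used CPM + 10 with a 2-fold limit. The floor was 3 counts over a class and library, a convention and not an interval limit. Detection was set at 500 UMIs per cell by the hypergeometric expectation, which leaves out no cell. Cells entered the division into states with at least 5 UMIs over both lists, which all 151 had.

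Genes are named by rule: the 12 highest and 12 lowest ratios among genes that entered (leaving out the genes of the member rule and mitochondrial, ribosomal, globin, pseudogene, antisense, Rik and Gm-numbered rows), the 2 highest and 2 lowest members of each of 22 lists with at least 20 UMIs, the markers, EGFP, and the 10 highest and 10 lowest between states. Other list members and counts of cells were named after their values were seen. Doublets were called with Scrublet in scanpy 1.11.5 and left in, since 0 members were called. In PyMT Scrublet called 0 of 592 barcodes. It also did not call the Met-1 neutrophil with 40 B cell marker UMIs. The calls therefore do not show that every member is a single cell. Simulated counts with known folds were used to test the ratios. Python 3.11.15, numpy 2.4.6, scipy 1.17.1 and matplotlib 3.10.9 were used. A member of the gene lists is not reported here.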

Additional observations from a re-analysis of the deposited data

Results flagged for a closer look

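Of the genes divided into states, 4 mitochondrial genes were at least 2-fold apart in opposite directions in the libraries. The difference itself was not tested. In PyMT, the log2 ratio of mature-side over activated-side neutrophils was -1.83 for mt-Nd1, -1.64 for mt-Nd2, -1.01 for mt-Co3 and -1.25 for mt-Cytb. In Met-1, it was 2.26, 1.49, 1.99 and 1.28 for the same genes. In the mature-side group of Met-1, 1 cell held 22 of 35 mt-Nd1, 15 of 17 mt-Nd2, 71 of 107 mt-Co3 and 48 of 65 mt-Cytb UMIs. Without the cell that held most UMIs of each gene in each group, the Met-1 ratios were 1.41, -0.68, 0.95 and -0.20 and the PyMT ratios -1.79, -1.80, -0.88 and -1.13. The largest mitochondrial share of a neutrophil was 8.05% in the mature-side and 1.28% in the activated-side group of Met-1, and 5.08% and 5.59% in those groups of PyMT.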

How the results depend on the processing

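No paired analysis was possible because each group is 1 library and the labels give no shared replicate numbers. The PyMT share of neutrophils depended on where the S100 limit was set: 25.7% at 1%, 11.8% at 5%, 28.0% at 0.5%, and 26.9% when at least 2 UMIs of Csf3r, Hdc and Cxcr2 replaced it (the last 2 chosen after seeing the data, as was the macrophage subtraction below). With a minimum of 100 CPM, 167 genes were higher and 159 lower in PyMT, with 400 CPM 42 and 30, with no filter 1216 and 1725, and with the macrophage ratio subtracted 58 and 46. Without the top cell per gene, a step that takes a larger part from the fewer Met-1 cells, 51 were lower. Between states, the counts in both libraries were 8 higher (5% S100 limit), 9 lower (marker rule), 37 lower (100 CPM), 9 higher and 3 lower (400 CPM), 161 and 408 (no filter), 26 and 8 (centred) and 6 lower (without the top cell). Fewer genes or cells entered under the stricter limits.

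Of 1818 recomputed gene ratios 1692 kept their direction and side of 2-fold, 78 fell inside it, 40 passed it and 8 reversed. The reversed log2 ratios were Bax -0.0061 and Siglecf -0.0056 (5% S100 limit), Cxcl10 -2.73, Pycard -0.56 and Ly6c2 -1.89 (marker rule), and Csn3 -3.24, Atf3 0.36 and Neurl3 0.11 (macrophage ratio subtracted), where the specific granule list also reversed, to a median of -0.83. The cause was not tested for the other settings. The hypoxia and glycolysis list kept a median log2 ratio between 1.26 and 1.86 under every setting tried. With 84351 UMIs in Met-1 neutrophils, genes under about 35.6 CPM there rest on 3 UMIs or fewer.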

Other observations

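Several transcripts were held by few neutrophils in both tumours. Of the PyMT neutrophils with Mmp8 UMIs, 24 of 30 also had Retnlg, as did 3 of 3 in Met-1. Hilpda was found in 34 PyMT and 7 Met-1 neutrophils, with 31 of its 165 PyMT UMIs and 17 of its 33 Met-1 UMIs in 1 cell. In PyMT, 15 of those 34 cells also held Egln3, which 24 cells held in all. Cxcl3 came from 5 PyMT cells, with 21 of its 34 UMIs in 1 cell, and from 1 Met-1 cell. The chemokine Cxcl10 had 28 UMIs in 9 PyMT cells and 1 in Met-1.

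Gm42418, a gene model that overlaps ribosomal RNA sequence and was left out of the named genes by rule, was the gene furthest lower in PyMT neutrophils among the 718 that entered, and was singled out after its value was seen. It was at 76.3 CPM in PyMT and 2976 CPM in Met-1 neutrophils, a log2 ratio of -5.11, and at 137 and 3055 CPM in macrophages, a log2 ratio of -4.39.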
